A study of Mus musculus with 6 samples.

Results

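The genes described are 8 genes of the neural crest and of the sensory progenitors that come from it: Sox10, Sox9, Tfap2b, Erbb3, Ednrb, Ngfr, Ntrk3 and Ret. They were chosen by name, and all probes carrying one of these names were taken, 20 of the 41174 probes on the array. The file gives 7 of the genes under these symbols, and Tfap2b was found under its older symbol Tcfap2b. Of the 20 probes, 13 were measured above background, and they left 7 of the 8 genes among the 19346 genes tested. Ret did not pass that filter.

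The study compared wild-type (WT) mouse embryos with Paraxis-/- embryos, which lack Paraxis (gene Tcf15, a transcription factor with a basic helix-loop-helix domain), at embryonic day 9.5. Both genotypes are given as C57BL/6J, no treatment is named, and neither the deleted stretch of the gene nor the litters that the embryos came from are given in the labels. Dissected tissue (the anterior presomitic mesoderm and somites I to IV, the newest segments of the trunk) from 5 embryos was pooled, with 3 pools per genotype. A WT and a Paraxis-/- pool were set against each other on 2 two-colour arrays of opposite dye orientation. This gave 3 pairs, named by the letter of their WT pool. Pair A joins WT pool A with Paraxis-/- pool A, pair B joins WT pool B with Paraxis-/- pool C, and pair C joins WT pool C with Paraxis-/- pool B. Slide 1 carries pair A alone and slide 2 carries the other pairs, so pair A and slide 1 cannot be told apart.

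Neural crest cells leave the dorsal neural tube and migrate beside and through the somites of the trunk. Some stop beside the neural tube and form the sensory neurons and glia of the dorsal root ganglia, others become sympathetic neurons, Schwann cells or pigment cells. The somite guides them, since its anterior portion lets crest cells pass and its posterior portion does not. In a dissected piece of whole tissue, fewer cells of a type and less RNA per cell cannot be told apart.

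Every ratio is the log2 of Paraxis-/- over WT, so that a positive value is a higher signal in Paraxis-/- tissue, and each mean is over 3 pairs, with a standard error (SE) from limma. Levels are log2 signals of a pool, and each is compared only with the same probe in other pools. A gene was called at a Benjamini-Hochberg adjusted p under 0.05 over all tested genes. Tcf15, the targeted gene, checked the labels with log2 ratios of -5.23, -5.48 and -5.52 in pairs A, B and C (mean -5.41, SE 0.09, limma adjusted p = 0.00054). An array had 43379 gene spots, and 27080 to 30982 of them exceeded background clearly for WT and 28683 to 31795 for Paraxis-/- tissue. With 3 pairs, the precision of each value is limited by their number.

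The measurements rest on short stretches of each transcript, and the probes that carry most of the results are shown so that they can be placed. The first 30 bases of each 60-base probe are given 5′ to 3′ as the scanner files hold them, with mm9 coordinates of those bases. Exons and untranslated regions were not annotated for these probes here.
Sox10 (chr15:78985535-78985564, minus strand): tgccttgcaccctttgctccagcgatacct
Sox9, brightest probe (chr11:112647008-112647037, plus strand): ttccaggagagagactttaagactttgtct
Sox9, probe printed 10 times (chr11:112648809-112648838, plus strand): ataaaaccttaaagcgttcttataatatgg
Ngfr, brightest probe, printed 10 times (chr11:95430241-95430270, minus strand): tccagctggcgactatgagatccagacctc
Ngfr, second probe (chr11:95435567-95435596, minus strand): acccgaggcaccgctgacaacctcattcct
Ednrb (chr14:104214514-104214543, minus strand): aaggacgccccagatcttcaattttaagtt
Erbb3 (chr10:128004779-128004808, minus strand): gttgcagatacacactcattacaagccaat
None of the 8 genes lies on chromosome 2, where the Tcf15 probe lies.

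No member passed the adjusted threshold, 0 of the 7 tested, against 0.0207% of all tested genes (4 of 19346). Ngfr was the 1 member with an unadjusted p under 0.05, a limit that 5.08% of all tested genes met, 2.35% as higher and 2.73% as lower. The median log2 ratio over the 7 tested members was 0.00, as it was over all tested genes. That median hides opposed pairs. The median over the members was -0.56, 0.27 and 0.38 in pairs A, B and C, while the medians over all tested genes lay between -0.00 and 0.01 in each pair. Below 0 in pair A and above 0 in both other pairs were 5 of the 7 members (Sox10, Sox9, Erbb3, Ednrb and Tfap2b), against 13.8% of the 19281 genes tested in 3 pairs. The same 5 had a pair A ratio at least 0.5 below those of pairs B and C, against 2.74% of these genes. Both counts were chosen after the values of the pairs had been seen. The gap between pair A and the nearer of the other pairs was 0.55 for Tfap2b, the member just inside that threshold, and 0.12 for Ngfr, the member just outside it.

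**Figure D1:**
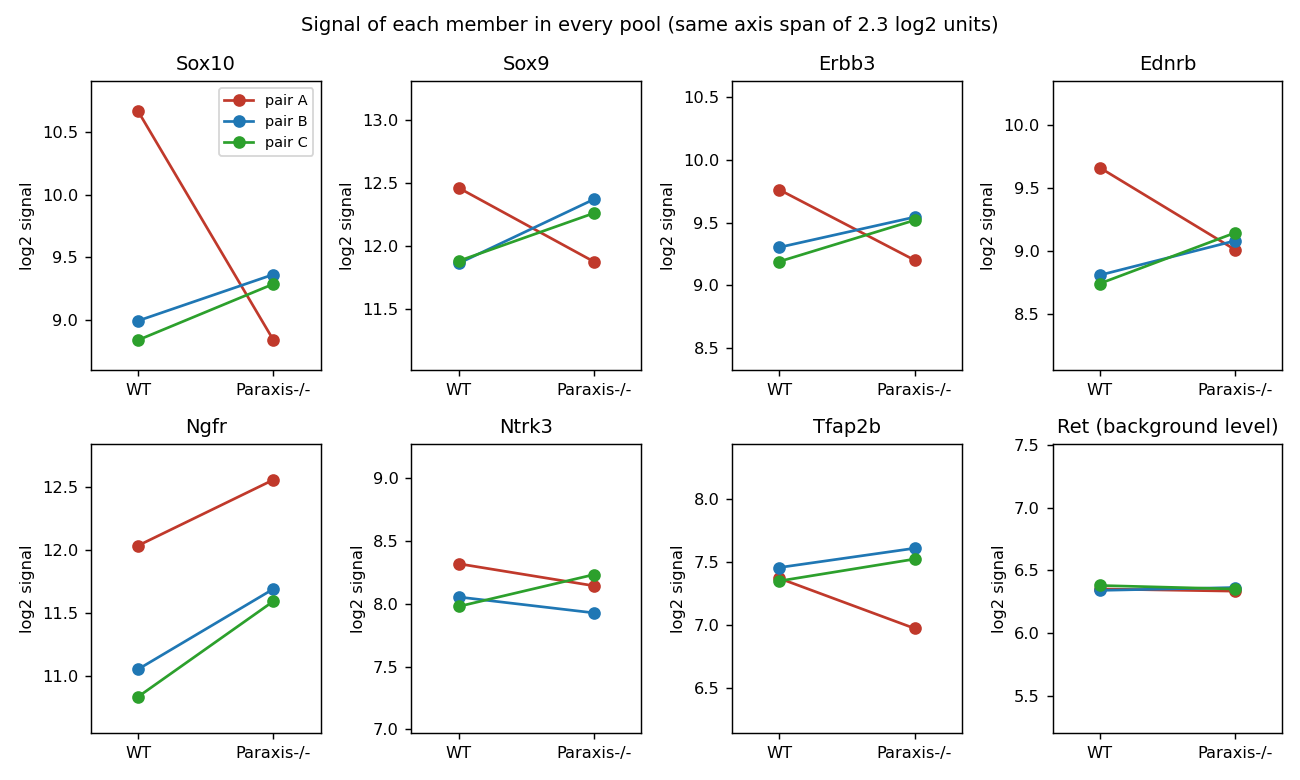
Log2 signal of the brightest probe of each of the 8 genes in every pool, WT on the left and Paraxis-/- on the right, with a line joining the pools that shared arrays; all panels span the same number of log2 units. WT pool A is the highest pool for Sox10, Sox9, Erbb3, Ednrb and Ntrk3, and for Ngfr every line goes up.

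Sox10 encodes the SoxE-family transcription factor that keeps crest cells multipotent and is needed for their glia. Its log2 signal was 10.66, 8.996 and 8.84 in WT pools A, B and C, and 8.84, 9.29 and 9.36 in Paraxis-/- pools A, B and C. By level, WT pool A stood apart from the other 5 pools, which slide 1 alone could also give, and the ranges of the genotypes overlapped. Its ratios were -1.82, 0.37 and 0.45 in pairs A, B and C (mean -0.34, SE 0.48, limma adjusted p = 0.98). Both arrays of pair A gave nearly the same value, -1.76 with the Paraxis-/- pool in Cy3 and -1.88 with it in Cy5. Among the 19281 genes tested in 3 pairs, 20 had a lower ratio than Sox10 in pair A. WT pool A was 1.74 above the mean of WT pools B and C, or 3.35-fold, and Paraxis-/- pool A was 0.48 below the mean of the other Paraxis-/- pools. A second Sox10 probe was well above background in 2 of 6 WT and 1 of 6 Paraxis-/- measurements, and its ratios of -0.47, 0.06 and 0.14 in pairs A, B and C had the same signs.

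The difference between pair A and the mean of pairs B and C is given as a description, with no test, since it sets 1 pair against 2 pairs of another slide and was chosen after the values had been seen. It was -2.23 for Sox10, or 4.68-fold. For the other members it was -1.03 for Sox9, -0.99 for Ednrb, -0.84 for Erbb3, -0.56 for Tfap2b, -0.24 for Ntrk3 and -0.18 for Ngfr. Its median size over all genes tested in 3 pairs was 0.15.

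Sox9, the second SoxE factor, acts in the earliest crest and is also the regulator of cartilage that the ventral somite uses. Its log2 signal was 12.46, 11.86 and 11.88 in WT pools A, B and C and 11.87, 12.26 and 12.37 in Paraxis-/- pools A, B and C. WT pool A was again the highest and the genotypes overlapped. The ratios were -0.59, 0.51 and 0.38 in pairs A, B and C (mean 0.10, SE 0.23, limma adjusted p = 0.99). A second Sox9 probe is printed 10 times on the array, which gives the spread within an array. Its ratios were -0.61, 0.71 and 0.66 in pairs A, B and C, while the SD of its replicate spots on an array was 0.04 to 0.06. All 20 spot ratios of pair A lay between -0.74 and -0.47, those of pair B between 0.55 and 0.87 and those of pair C between 0.57 and 0.79. The spots of 1 array share their RNA pools, so this spread does not cover the variation between pools. The dimmest Sox9 probe gave -0.32, -0.11 and 0.16, so it shared the signs of pairs A and C and not that of pair B. Its log2 signals were low, 6.92 to 7.30.

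Tfap2b encodes an AP-2 transcription factor of crest-derived neurons and other tissues. Its log2 signal was 7.37, 7.46 and 7.35 in WT pools A, B and C and 6.97, 7.53 and 7.61 in Paraxis-/- pools A, B and C. By level, the pool that stood apart here was Paraxis-/- pool A, the lowest, and WT pool A lay between the other WT pools. This compares levels between slides, so it cannot be told apart from a slide shift. The ratios were -0.40, 0.15 and 0.17 (mean -0.02, SE 0.14, limma adjusted p = 0.99). A second probe gave -0.06, 0.09 and -0.10 in the same order, at low log2 signals of 6.71 to 6.89. The last probe was not well above background on any array, so the pair A value of Tfap2b rests on 1 probe.

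The receptors followed more than 1 pattern. Erbb3 encodes the neuregulin receptor that migrating crest and Schwann cell precursors depend on. Its log2 signal was 9.76, 9.30 and 9.19 in WT pools A, B and C and 9.20, 9.52 and 9.54 in Paraxis-/- pools A, B and C. The ratios were -0.56, 0.24 and 0.33 (mean 0.00, SE 0.19, limma adjusted p = 0.9996), with WT pool A the highest pool and overlapping genotypes. All 4 other Erbb3 probes failed the background filter. Ednrb encodes the endothelin receptor of crest cells that colonise the gut and the skin. It had log2 signals of 9.66, 8.81 and 8.74 in WT pools A, B and C and of 9.01, 9.14 and 9.08 in Paraxis-/- pools A, B and C. The Paraxis-/- pools were close together (SD 0.07, n = 3), whereas the SD of the WT pools was 0.51 (n = 3) because pool A was high. Its ratios were -0.65, 0.27 and 0.40 (mean 0.01, SE 0.22, limma adjusted p = 0.9995), and a second probe gave -0.89, 0.14 and 0.44. The arrays of pair A disagreed for that second probe, at -1.67 with the Paraxis-/- pool in Cy3 and -0.12 with it in Cy5.

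Ngfr, the p75 receptor that binds all neurotrophins and marks migrating crest, was the 1 tested member with the same sign in all 3 pairs, against 25.8% of genes tested in 3 pairs. Its log2 signal was 12.04, 11.05 and 10.83 in WT pools A, B and C and 12.56, 11.59 and 11.69 in Paraxis-/- pools A, B and C. Each Paraxis-/- pool was above the WT pool it shared arrays with, yet the ranges of the genotypes overlapped, because both pools of pair A were brighter than the rest. The ratios were 0.52, 0.64 and 0.76 in pairs A, B and C, a mean of 0.64 (SE 0.08, 95% confidence interval 0.44 to 0.84), or 1.56-fold higher in Paraxis-/- tissue. The limma p was 0.00047 before and 0.32 after adjustment over all genes, so the difference did not pass. By p it ranked 28 of the 19346 genes. Flipping the signs of the 3 pair ratios in an exact two-sided test gave p = 0.25, and no smaller p is possible with 3 pairs.

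The replicate spots and the second Ngfr probe differ in what they show. Ngfr's bright probe is printed 10 times, and all 57 of its 60 spot ratios that were used lay between 0.42 and 0.86. The second, dimmer probe gave 0.14, 0.10 and 0.39 in pairs A, B and C (mean 0.21, SE 0.09, not past the threshold). Both probes were thus above 0 in every pair, and they differed in size. The log2 signals of the second probe were low, 7.14 to 7.73 against 10.83 to 12.56 for the bright probe. The sizes are therefore not directly comparable. With the mean of both probes the ratio of Ngfr was 0.42.

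**Figure D2:**
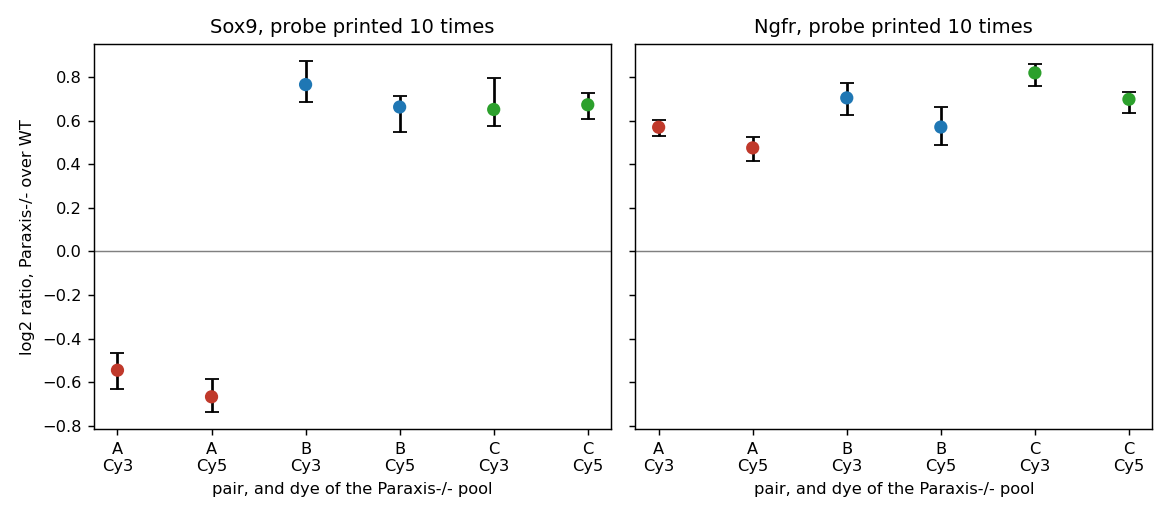
Log2 ratio of the Sox9 and Ngfr probes that are printed 10 times, by array, labelled with the pair and the dye of the Paraxis-/- pool; points are the mean of the spots used and bars run from the lowest to the highest spot. The pair A arrays of Sox9 lie below 0 and its other 4 arrays above 0, while all 6 Ngfr arrays lie above 0.

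Ntrk3 encodes TrkC, the neurotrophin-3 receptor of proprioceptive sensory neurons. Its log2 signal was 8.32, 8.05 and 7.98 in WT pools A, B and C and 8.14, 8.23 and 7.93 in Paraxis-/- pools A, B and C. The pools of the genotypes were interleaved. The ratios were -0.18, -0.13 and 0.25 (mean -0.02, SE 0.11, 95% confidence interval -0.29 to 0.26, limma adjusted p = 0.99), and a second probe gave -0.17, -0.09 and -0.10. Ret, the receptor of the GDNF family that enteric and sympathetic precursors use, was well above background in 0 of the 12 measurements of its probe. Of 120 single spot measurements of Ret, 9 were well above background. Its signal was 6.34 to 6.38 in the WT pools and 6.34 to 6.36 in the Paraxis-/- pools, so no difference was detectable at this signal.

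**Figure D3:**
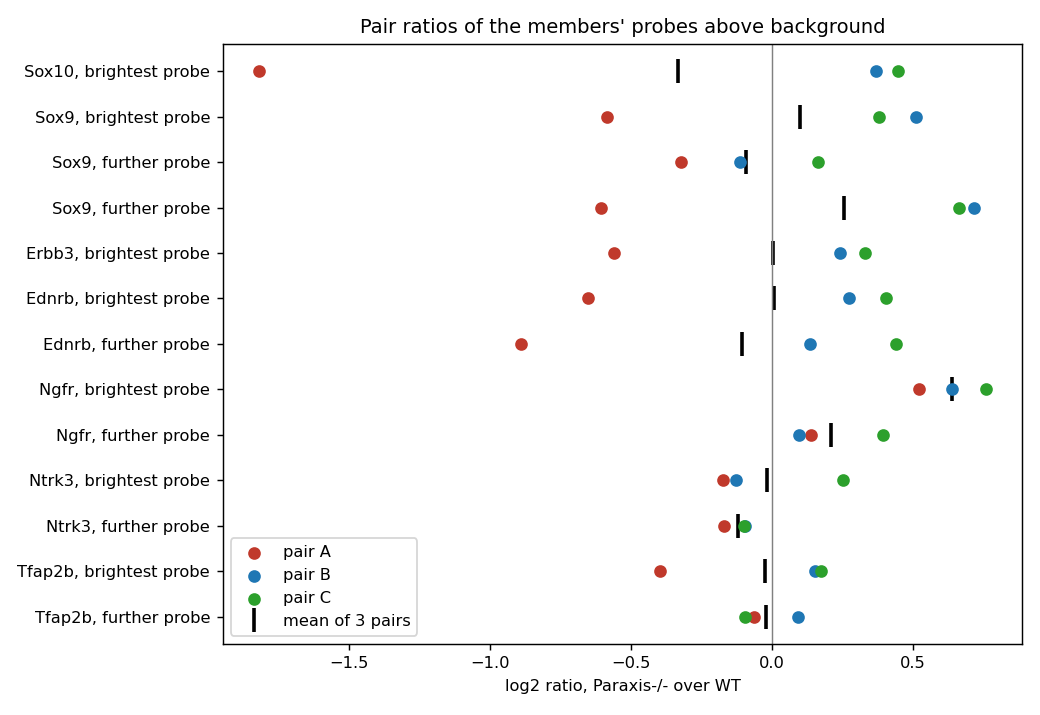
Log2 ratio of Paraxis-/- over WT for the 13 probes of the members that were above background, with 1 point per pair and a bar at the mean of 3 pairs. In 7 of the 13 probes pair A lies below 0 and pairs B and C above it, and both Ngfr probes lie above 0 in all pairs.

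The 95% confidence intervals of the other members were wide because the pairs opposed each other. They ran from -1.57 to 0.90 for Sox10, from -0.50 to 0.70 for Sox9, from -0.57 to 0.58 for Ednrb, from -0.49 to 0.50 for Erbb3 and from -0.38 to 0.33 for Tfap2b. Their SEs, 0.14 to 0.48, are above the median SE of 0.08 over all tested genes. Without pair A the mean ratio was 0.41 for Sox10, 0.44 for Sox9, 0.34 for Ednrb, 0.28 for Erbb3 and 0.16 for Tfap2b, and the adjusted p of these 5 lay between 0.55 and 0.87. The sign of the mean for Sox10 and Tfap2b thus turned without pair A.

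Signals of other cell types moved with pair A as well, and their part in the members' values was not tested. The neural tube, from which the crest leaves, was followed by 9 measured markers, all of them above background. Their median ratio was -0.29, 0.16 and 0.18 in pairs A, B and C, and 6 of the 9 were below 0 in pair A and above 0 in both others. Summed signal over these markers was 16529 in WT pool A, against 10560 in the lowest WT pool and 12699 to 13127 in the Paraxis-/- pools. Dbx1, a homeobox gene of spinal cord progenitors, had ratios of -2.12, 1.08 and 1.31, and Olig2, a motor neuron progenitor factor, -0.82, 0.11 and 0.18 (both named after their values were seen). Sox1 and Irx3, which are also neural tube genes, had ratios of 0.06 and 0.02 in pair A. Their log2 signals there were low, 6.92 to 7.03, so a difference may have been missed. Sox2, at log2 signals of 11.91 in WT and 11.82 in Paraxis-/- pool A, had -0.09 in pair A. The list thus did not move by 1 common amount. The roof plate list had medians of -0.08, 0.10 and 0.14 over 7 tested markers, with summed signals of 7199 to 10067 in WT and 6561 to 9080 in Paraxis-/- pools. In that list 4 of the 7 were below 0 in pair A and above 0 in both others, against the same 13.8%. Among them Zic1, a zinc-finger factor that dorsal neural tube, crest and somite share, had -2.43, 0.32 and 0.11. Zic2 went the other way in pair A, with 0.90, -0.03 and -0.90 (both named after their values were seen). Gdf7 and Msx1 had 0.06 and 0.02 in pair A.

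The markers of other tissues had no common direction in pair A. Gut endoderm markers (5 tested) had medians of 0.59, -0.04 and -0.03 in pairs A, B and C, surface ectoderm markers (9 tested) 0.39, -0.05 and 0.15, and notochord and floor plate markers (6 tested) 0.31, -0.01 and 0.05. Summed gut endoderm signal ran from 2487 to 9446 in WT and from 6245 to 17020 in Paraxis-/- pools, with WT pool A the lowest and Paraxis-/- pool A the highest. Most of this sum came from Cdx2 in every pool, so it mainly follows 1 gene and cannot be read as an amount of gut endoderm. Cdx2 had ratios of 3.11, -0.51 and -0.82 in pairs A, B and C. T, of the notochord and floor plate list, had 1.44, -0.34 and 0.39 (both named after their values were seen). Pair A was at least 0.5 above both others in 3 of the 5 gut endoderm markers. The same held for 2 of the 6 notochord and floor plate markers, against 2.38% of genes tested in 3 pairs. Summed surface ectoderm signal was 19940 to 31596 in WT and 30693 to 38189 in Paraxis-/- pools, and that of notochord and floor plate 4797 to 6989 and 6818 to 6970. Nephric duct and intermediate mesoderm (8 tested) had medians of 0.10, 0.09 and 0.00, endothelium (7 tested) -0.23, 0.15 and 0.03, and primitive blood (9 tested) 0.34, 1.01 and -0.06. Their summed signals in WT and Paraxis-/- pools were 3364 to 4412 and 4323 to 5309, 7854 to 8717 and 6335 to 10418, and 94751 to 161823 and 160518 to 242927. None of the markers of these 6 cell types passed the adjusted threshold. Paraxial mesoderm markers, which define the dissected tissue, were above background for all 12 measured and had medians of -0.35, -0.54 and -0.38, with Tcf15 the 1 called, lower. In 2 of the 12 the pair A ratio was at least 0.5 above both others, against 2.38% of genes tested in 3 pairs. These were Tbx6 at 2.43, -0.59 and 0.22 and Dll1 at 0.66, -0.40 and 0.06. Without Tcf15, the deleted gene, the 11 others had medians of -0.07, -0.49 and -0.37. Their summed signal was 74380 in WT and 77279 in Paraxis-/- tissue in pair A. It was 75832 and 57050 in pair B, and 72339 and 70118 in pair C, so the ranges overlapped. Meox1 had the highest log2 signal of the 11 in every pool (14.93 in WT and 15.23 in Paraxis-/- pool A), so it weighs most in this sum. Its ratios were 0.31, -0.02 and 0.43. Of all 12, 7 had an unadjusted limma p under 0.05 as lower, Tcf15 among them, and 0 as higher. The shares over all tested genes were 2.73% and 2.35%.

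**Figure D4:**
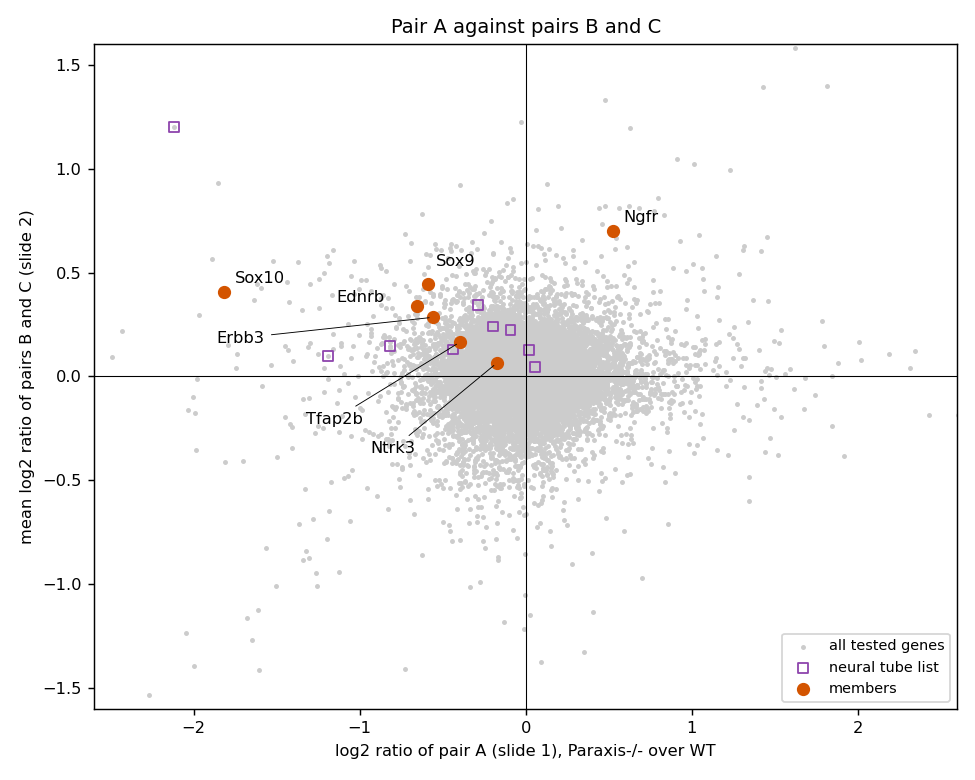
Ratio of each tested gene in pair A (x axis) against its mean ratio in pairs B and C (y axis), both log2 of Paraxis-/- over WT; grey points are all genes tested in 3 pairs, squares the neural tube list and filled circles the members. Of 19281 genes, 25 fall outside the axes; 5 members lie in the upper left quadrant at a gap of at least 0.5, and Ngfr lies in the upper right.

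Other genes of the crest programme were read from a list of 19 regulators, all tested, of which 0 passed in either direction. Their median ratio was -0.32, 0.10 and 0.11 in pairs A, B and C. Of the 19, 6 had pair A at least 0.5 below both others, against 2.74% of genes tested in 3 pairs. Snai2, the repressor of epithelial character in emigrating crest, had ratios of -1.03, 0.50 and 0.29. Pax7, a factor of early crest and dermomyotome, had -0.85, 0.26 and 0.13. The log2 signals of Pax7 were low, 6.76 to 7.11 in all pools but WT pool A (7.69). Foxd3, which keeps crest cells multipotent, had -0.30, 0.23 and 0.10. These were named after their values were seen. In 7 of the 19 the sign was the same in all 3 pairs, and the 3 of these with the smallest p were Pax3 at -0.70, -0.39 and -0.39 (mean -0.49, limma adjusted p = 0.57), Msx2 at 0.18, 0.33 and 0.44 (mean 0.32, adjusted p = 0.82) and Tfap2c at 0.79, 0.24 and 0.27 (mean 0.43, adjusted p = 0.93). Pax3 is also a paraxial mesoderm gene and Tfap2c a gene of surface ectoderm, so these libraries do not separate their sources.

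The derivatives of the crest were described by 4 lists, with no gene called in any of them. In the sensory neuron list 13 genes were tested, with medians of -0.16, 0.04 and 0.09, and 7 were below 0 in pair A and above it in the others. Neurog2, the proneural factor of early sensory precursors and of the neural tube, had -0.86, 0.29 and 0.49, and the neuronal factor Nhlh1 -1.17, 0.40 and 0.39 (both named after their values were seen). By the naming rule Eya1 was the 1 sensory gene with the same sign in all pairs, and its mean was -0.01 (adjusted p = 0.99). Schwann cell precursor and glial genes (9 tested) had medians of -0.21, 0.01 and -0.02. In that list S100b had a mean of -0.10 (adjusted p = 0.95) and Gfra3 of 0.11 (adjusted p = 0.95). Pair A was at least 0.5 below both others in 2 of the 9 and at least 0.5 above them in 1. The shares over all genes tested in 3 pairs were 2.74% and 2.38%. Fabp7, a glial and radial glial lipid carrier, had -2.01, 0.02 and -0.22, and Mbp had 0.76, -0.05 and 0.04 (both named after their values were seen). Sympathetic and enteric precursor genes (8 tested) had medians of 0.00, 0.11 and 0.01, with Gata2 at 0.39 (adjusted p = 0.76) and Hand2 at 0.06 (adjusted p = 0.97). Pigment cell genes (5 tested) had medians of 0.17, 0.01 and 0.01, with Kit at 0.24 (adjusted p = 0.95) and Mitf at 0.07 (adjusted p = 0.96). The late markers Cdh19, Neurod1, Tyr and Tyrp1 did not pass the background filter.

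**Figure D5:**
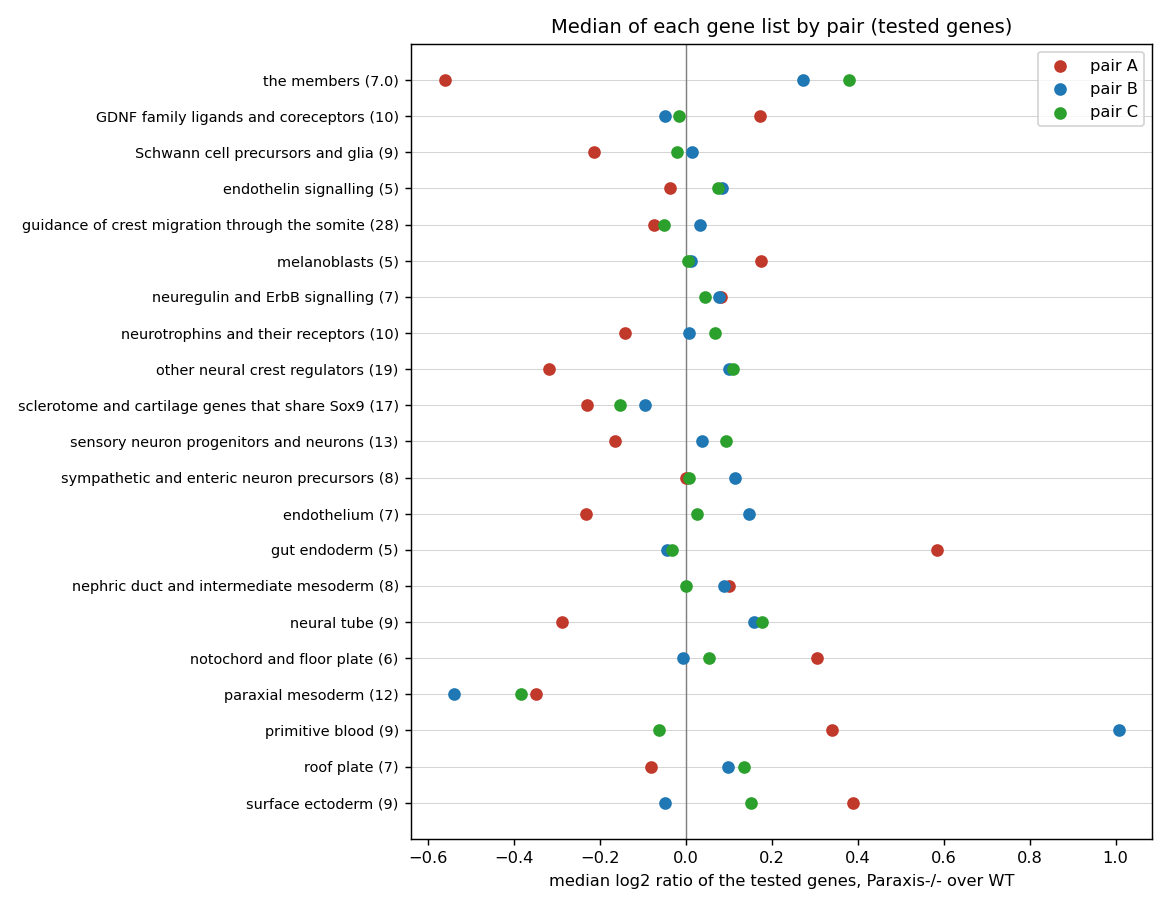
Median log2 ratio of Paraxis-/- over WT in each pair for the members and for every list, with the number of tested genes in brackets. The members have medians of -0.56, 0.27 and 0.38, and 7 of the 20 lists also have pair A below 0 and the other pairs above it (neural tube, roof plate, endothelium, crest regulators, sensory neurons, endothelin signalling and neurotrophins).

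Ligands and partners of the receptors gave no call either. Of the neuregulin and ErbB genes 7 were tested, with medians of 0.08, 0.08 and 0.05. Errfi1, a feedback inhibitor of ErbB receptors, had ratios of 0.56, 0.30 and 1.32 (mean 0.73, SE 0.21, limma adjusted p = 0.93), and Egfr had a mean of 0.14 (adjusted p = 0.95). Erbb2, the signalling partner of Erbb3, had ratios of 0.13, -0.15 and 0.05 in pairs A, B and C, and their ligand Nrg1 -0.25, 0.13 and 0.48. In endothelin signalling 5 genes were tested, with medians of -0.04, 0.08 and 0.07. Edn3, the ligand of Ednrb, had ratios of -0.04, 0.00 and 0.07, close to 0 in every pair. Its log2 signal of 6.56 to 6.69 over all pools lay near background, so a difference may not have been detectable. Ednra, the sister receptor, had a mean of 0.12 (adjusted p = 0.95).

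For the neurotrophin system 10 genes were tested, with medians of -0.14, 0.01 and 0.07. Ntrk2, the BDNF receptor, had ratios of -1.05, 0.59 and 0.38 (named after its values were seen), and the ligand of Ntrk3, Ntf3, had -0.47, -0.00 and 0.04. Bdnf had a mean of -0.12 (limma adjusted p = 0.95), Ntf5 of 0.14 (adjusted p = 0.95) and Nradd, a death-domain relative of Ngfr, of -0.30 (adjusted p = 0.95). Among GDNF family ligands and coreceptors 10 genes were tested, with medians of 0.17, -0.05 and -0.02. Nrtn, which encodes the Ret ligand neurturin, had ratios of -1.68, -1.08 and -1.24, a mean of -1.33 (SE 0.13, limma adjusted p = 0.19). Its 3 pairs lay far below 0, and it still missed the threshold. Spry1, a feedback inhibitor of receptor tyrosine kinases, had a mean of -0.15 (adjusted p = 0.95).

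Guidance genes that steer crest through the somite were tested for 28 genes, with medians of -0.07, 0.03 and -0.05 and 0 calls. Sema3f, a repellent secreted by the posterior somite, had ratios of -0.40, -0.19 and -0.43 (mean -0.34, SE 0.08, limma adjusted p = 0.79). Efnb1, a repellent ligand for Eph receptors, had 0.27, 0.25 and 0.22 (mean 0.25, adjusted p = 0.86), and the chemokine Cxcl12 -1.05, -0.05 and -0.52 (mean -0.54, adjusted p = 0.95). Sclerotome and cartilage genes, which share Sox9 with the crest, were the 1 pathway list with a call. Of 17 tested, 0 passed as higher and 1 as lower. Pax1, the paired-box factor of the sclerotome, fell by 4.35 on the log2 scale (SE 0.13, limma adjusted p = 0.0046). Uncx, a homeobox gene of the posterior somite, had a mean of -0.78 (adjusted p = 0.25). The cartilage collagen Col2a1, a target of Sox9, had ratios of -0.96, 0.28 and 0.23 and Col9a1 -0.45, 0.60 and 0.60. These were the signs that Sox9 had (both named after their values were seen). They were found in 3 of the 17 tested genes, against 13.8% of all genes tested in 3 pairs. The third was the sclerotome gene Pax9, with -1.74, 0.15 and 0.06. Other cartilage genes did not share them, as Hapln1 had 0.57, 0.22 and 0.18 and Col11a2 -0.23, -0.21 and -0.48. Acan had -0.01, 0.00 and -0.07.

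Over the 127 tested genes of the 11 pathway lists, members left out and each gene counted once, 1 passed the adjusted threshold. Opposed signs of pair A and both other pairs, in the members' direction, held for 26 (20.5%), against 13.8% of all genes tested in 3 pairs. A pair A ratio at least 0.5 below both others was found for 23 (18.1%), against 2.74%. A pair A ratio at least 0.5 above both others was found for 6 (4.72%), against 2.38% of all genes tested in 3 pairs.

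The genes whose level was most like the mean of the 7 tested members over the 6 pools were Tigd5, Paqr4, Traf3ip2, Dbnl and Fam234a, with Pearson's r of 0.988 to 0.995. These are a description over 6 pools that share arrays in pairs, and 61 of 19281 genes had an r over 0.95. Their ratios were small, such as -0.15, 0.10 and 0.11 for Tigd5 and -0.36, 0.17 and 0.27 for Traf3ip2 in pairs A, B and C. Against the same mean, which holds them, Ednrb had an r of 0.99, Sox10 and Erbb3 of 0.92, Sox9 of 0.88, Ntrk3 of 0.69, Ngfr of 0.59 and Tfap2b of 0.14.

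Paraxis belongs to a family of factors that bind the E-box, so the promoters were searched for it. RefSeq promoter sequences (GRCm38.p6) were at hand for 3 of the 8 members, and the 250 bases before each start are printed 5′ to 3′ on the gene's strand. Capitals mark the letters CANNTG, which read the same pattern on both strands.
Ngfr (chr11:95587699-95587948, minus strand): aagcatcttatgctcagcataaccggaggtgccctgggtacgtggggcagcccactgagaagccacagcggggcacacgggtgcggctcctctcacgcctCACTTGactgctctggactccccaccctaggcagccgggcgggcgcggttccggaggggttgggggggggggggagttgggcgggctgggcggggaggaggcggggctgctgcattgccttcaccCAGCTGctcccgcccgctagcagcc
Ednrb (chr14:103843702-103843951, minus strand): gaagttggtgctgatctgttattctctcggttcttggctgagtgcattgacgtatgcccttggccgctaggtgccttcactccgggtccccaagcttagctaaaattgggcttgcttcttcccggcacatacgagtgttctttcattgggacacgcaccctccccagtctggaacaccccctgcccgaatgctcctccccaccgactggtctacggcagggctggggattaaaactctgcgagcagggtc
Tfap2b (chr1:19211804-19212053, plus strand): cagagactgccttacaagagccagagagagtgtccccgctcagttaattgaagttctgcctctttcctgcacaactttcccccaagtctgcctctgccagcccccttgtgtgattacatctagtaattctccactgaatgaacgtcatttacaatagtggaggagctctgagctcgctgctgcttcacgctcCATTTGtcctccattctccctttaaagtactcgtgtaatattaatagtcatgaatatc
The Ngfr window holds 2 matches, the Tfap2b window 1 and the Ednrb window 0. At least 1 match is found in 66.2% of the 32851 promoter windows of this length, and at least 2 in 31.8%. A match is a run of letters and not a measured binding site.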

How the data were processed

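Per the file headers, Agilent Feature Extraction 10.7.3.1 read slide 1 and 10.5.1.1 read slide 2. Version 8.5.1.1 stands in the submitters' processing notes. Per the labels' protocols, 250 ng of total RNA with an integrity number of at least 7.9 was labelled. The deposited median spot intensity and local background intensity of each channel were corrected here with normexp (offset 50) and loess-normalized (limma 3.58.1, R 4.3.3, and data.table at version 1.17.8), and pool levels also by Aquantile. The deposited series matrix holds the authors' log10 ratio of Cy5 over Cy3, which matched that of the scanner files within 5e-11, with column medians of 0, and was used as an alternative. Deposited outlier flags, which are yes or no, removed 438 to 620 gene spots per array. The deposited background flags, also yes or no, removed no single spots and set the probe filter. Slide 1 had 79 to 486 saturated spots per channel and slide 2 had 0. For 2 arrays the pools named in the title and in the description differ, and the title was followed. The pools are labelled as separate biological replicates.

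Probes were kept if well above background in at least 4 of 6 measurements of either genotype (28413 of 41174), the brightest kept probe stood for a gene, and 2 pairs were required. Both arrays of a pair were averaged, so the pairing comes from shared arrays. Across genes the pair ratios had r of 0.11 (A and B), 0.07 (A and C) and 0.17 (B and C). Names were updated through a RefSeq listing of GRCm38.p6 (26690 probes by accession, 5189 by symbol, 952 by synonym, 8343 unchanged). On simulated pairs of 19346 genes the test found 34% of changes of 1.5-fold and 76% of those of 2-fold, and 13 of its 166 calls were false. Since 4 genes passed in the real data, these shares do not give its power there.

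The members and lists were chosen with earlier results of these data known. Named genes are the members, Tcf15, up to 3 genes per pathway list with the smallest p among those with 1 sign in all 3 pairs, and the 5 genes most like the members' mean (some genes the rule takes are not reported here); ligands, partners and others named besides these were chosen with their values known. Alternatives covered background correction, normalization, scaling, the probe filter and choice, left-out pairs, and the blocks for pair and slide.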

Additional observations from a re-analysis of the deposited data

How the results depend on the processing

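Under 14 alternatives that keep 3 pairs, the ratio of Ngfr lay between 0.42 and 0.74. It passed the adjusted threshold in both fits that take the 6 arrays one by one, where the dye-swapped arrays of the same pools count as further measurements and no pool is added: limma adjusted p = 0.0088 with no replicate block and 0.023 with the pair as replicate block (within-pair correlation 0.47). In each of these 2 fits 1 member passed, and in the other fits none. Over all alternatives with a test, its adjusted p lay between 0.0088 and 0.99. The count of genes called, 4, became 18 with scaling of the ratios between arrays, 69 with 6 arrays and no replicate block, 40 with the pair as replicate block and 44 with slide as a fixed block, and 0 to 2 when 1 pair was left out. The 6-array fits count dye swaps of the same 3 pairs, and leaving out a pair leaves 2; for scaling and the slide block the cause was not tested.

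Means near 0 changed sign: Tfap2b was 0.011 with scaling and Ednrb -0.049 with the mean of its probes. Leaving out 1 pair in turn gave -0.73 to 0.41 for Sox10, -0.10 to 0.44 for Sox9, -0.19 to 0.34 for Ednrb, -0.16 to 0.28 for Erbb3, -0.12 to 0.16 for Tfap2b, -0.15 to 0.064 for Ntrk3 and 0.58 to 0.70 for Ngfr. Slide 2 alone is the same as leaving out pair A. Slide 1 alone, with 1 pair and no test, gave -0.65 for Ednrb, -0.56 for Erbb3, -0.59 for Sox9 and a median of -0.56 over the members. The number of members below 0 in pair A and above 0 in both others was 5 under each of 10 alternatives, and the number with a gap of at least 0.5 was 4 to 5. Low signal limits Ret and 6 further probes of the members, which were not above the background filter.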
